A study of Mus musculus with 8 samples.

Results

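Bone morphogenetic proteins (BMPs) are secreted ligands of the TGF-β family. A BMP dimer brings together type I and type II receptor kinases on the cell surface, the type II receptor activates the type I receptor, and the type I receptor phosphorylates the receptor-regulated Smads, which join Smad4 and enter the nucleus to switch on targets such as the Id genes. Extracellular antagonists bind the ligand and keep it from its receptors. Sostdc1 is such an antagonist, which also dampens Wnt signals by binding LRP coreceptors.

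The expression of 8 genes of this pathway was followed in CD4 T cell subsets of peripheral lymph nodes (pLN): the ligand Bmp7, the antagonist Sostdc1, the type I receptors Bmpr1a and Acvr1, the type II receptors Bmpr2 and Acvr2a, and the receptor-regulated Smads Smad1 and Smad5. They were picked out by gene name, with earlier results of these data known, and are 8 of the 29924 gene names on the array. Together they have 15 probes. For each gene the probe with the highest mean log2 level was used, and any other probe served as a check. Bmp7, Bmpr1a, and Bmpr2 have 1 probe each, so they had no such check. A probe was taken as measured on an array when the scanner software called it well above background, and a gene was tested when its probe was so called on the d12 and the d25 array of any 1 cell type. All 8 genes were among the 15764 tested. Bmpr1a and Bmpr2 entered through their Treg and TFR arrays, since neither was well above background in naïve CD4 T cells.

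All cells came from mice of the strain B6.Cg-Foxp3<tm1Mal>, in which EGFP reports Foxp3, the transcription factor of regulatory T cells. The mice were immunized s.c. with keyhole limpet hemocyanin in alum, and draining pLN were collected at day 12 (d12) or day 25 (d25) post immunization (p.i.). Per the labels, each sample is a pool of 8 to 15 mice of both sexes, aged 8 to 14 weeks, and 25 ng of RNA was labeled. The sorted populations were naïve CD4 T cells (EGFP-, PD1-, GL7-), follicular helper T cells (TFH; EGFP-, PD1 high, GL7+), regulatory T cells (Treg; EGFP+, PD1-, GL7-) and follicular regulatory T cells (TFR; EGFP+, PD1 high, GL7+ or GL7-). There is 1 array for each population and day, 8 in all, so the 2 arrays of a cell type are different pools taken at different days. No unimmunized group was analysed here.

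Genes that define the populations followed the labels. Foxp3 measured 37266 to 49262 relative units (RU) on the Treg and TFR arrays and 66 to 358 RU on the others. Bcl6, the master regulator of follicular T cells, measured 23711 to 112804 RU on the TFH and TFR arrays and 5277 to 6877 RU on the others. One array stood apart. On the TFH array of d25, the B cell genes Ms4a1 and Cd79a were higher than on any other array. Ms4a1 measured 2738 RU there and 65 to 1142 RU elsewhere. The summed level of 5 B cell markers was 11484 RU there, 1584 RU on the TFH array of d12 and 3991 to 8464 RU on the other 6 arrays. A sum over probes follows the brightest ones, here Cd79b. Cd79b measured 6845 RU on the TFH array of d25, but 7083 and 7547 RU on the Treg arrays. Pax5 was at the floor of 20 RU on all arrays, and Ebf1 measured 60 RU on the TFH array of d25 and 20 RU on the others. Of the follicular dendritic cell markers, Cr2 and Fcer2a were also highest on the TFH array of d25. Cr2 measured 711 RU there and 74 to 262 RU elsewhere, and Fcer2a 149 RU there and 31 to 106 RU elsewhere. Clu and Mfge8, of the same list, were highest on the naïve array of d12. Other markers varied too. The plasma cell gene Jchain measured 7466 RU on the naïve array of d12 and 418 to 3154 RU elsewhere. The other plasma cell genes differed from it: on that array Xbp1 was at its lowest level, 16064 RU, and Sdc1 was at the floor. The stromal gene Col1a1 measured 288 and 195 RU in TFR cells and 197 and 48 RU in TFH cells, and Col1a2 was highest on both TFR arrays. The summed level of 7 stromal markers was 409 and 597 RU on the TFR arrays and 188 to 438 RU on the others, with Pdgfra, Pdgfrb, and Pdpn at the floor throughout. The part of these markers in the results, the TFR levels of the receptor genes included, was not tested. The main values of TFH cells are given below without the TFH array of d25 as well.

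Each probe is 60 bases long. The first 30 bases are shown, 5′ to 3′ as the array design lists them, for the probes that carry the differences between follicular cells and their counterparts, so that a reader can tell which stretch of each transcript was measured. They are written in lower case because no motif or site is marked.

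Bmp7: gctggcgtctgtgttgaagggaaaccaagc

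Sostdc1, main probe: tctcaagatgtaatgagtagtttgcagtga

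Sostdc1, other probe: tttttccagtctcagtgtgaaattatcccc

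Acvr1, main probe: acgctgtggggggaaatgcatcttcttcgg

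Acvr1, other probe: attaagacagtggctctctgcgtatctttc

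In the coordinates of the array files (mouse build NCBI37/mm9), the Bmp7 probe lies at chr2:172695203-172695262 on the minus strand. The main Sostdc1 probe lies at chr12:37044197-37044256 on the plus strand and the other Sostdc1 probe downstream of it at chr12:37044532-37044591. The main Acvr1 probe lies at chr2:58298937-58298996 on the minus strand. Whether these stretches are coding or untranslated was not read here, since no annotation of that build was used.

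Levels below are normalized intensities in RU, always in the order naïve, TFH, Treg, TFR. They are comparable across arrays for 1 probe, but not between probes. A difference is the mean over both days of the log2 level in the first cell type minus that in the second, ± its SE, from limma with a term for the day, and adjusted p values are Benjamini-Hochberg values over all 15764 genes. The labels do not say that a cell type's samples are repeats of one condition. With 1 array per cell type and day, the spread in the test is how far the cell types depart from a common change with day. Differences between pools, and between slides at d25, are mixed into it. The spread between pools of 1 cell type at 1 day was not measured. In sorted bulk samples, fewer cells that express a gene and less RNA per cell cannot be told apart.

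**Figure D1:**
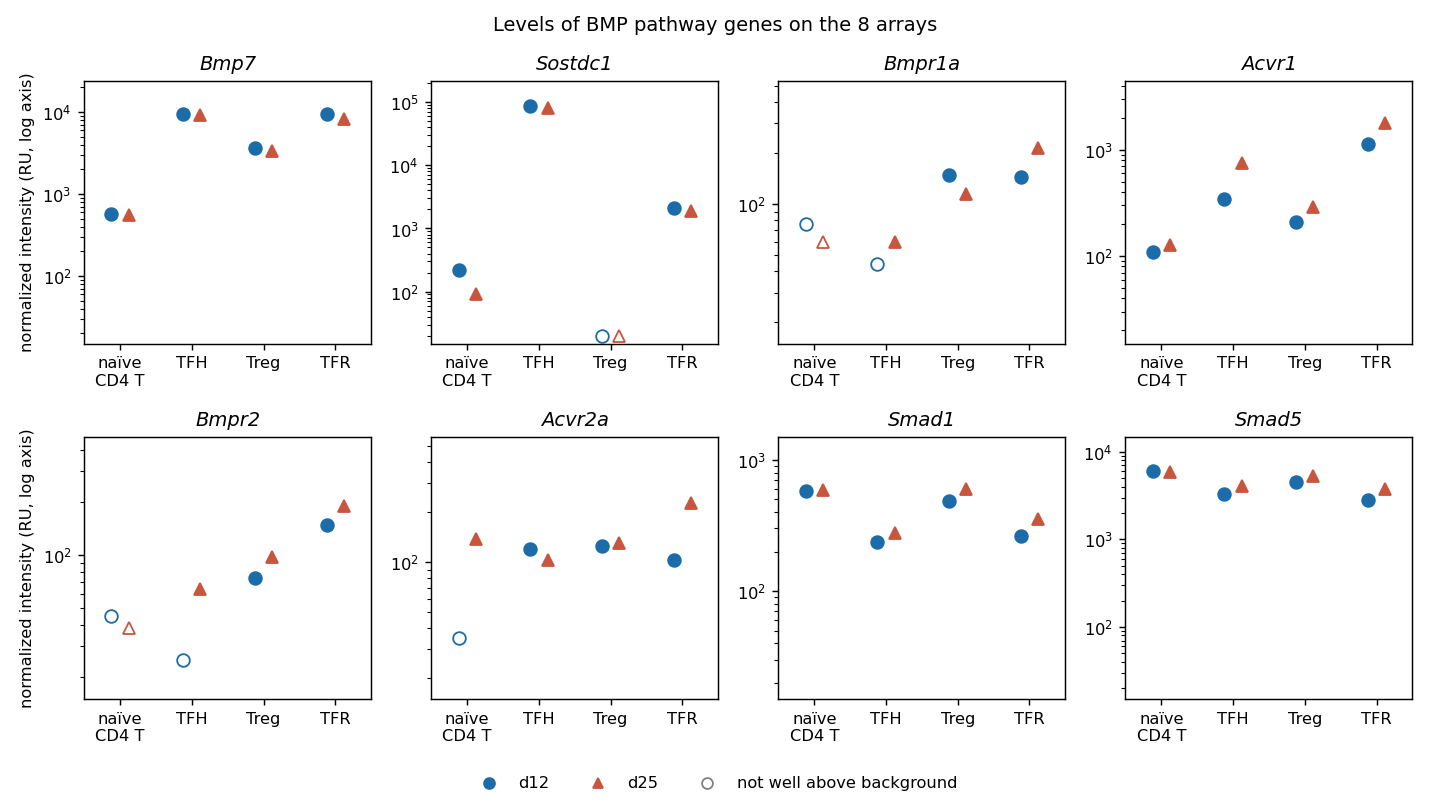
Normalized intensity (RU, log axis) of the main probe of each of the 8 genes, by cell type (n = 2 arrays each, d12 circle and d25 triangle); hollow marks were not well above background. Sostdc1 reaches 86739 RU in TFH cells and lies at the floor of 20 RU in Treg cells, whereas Bmp7 is at a like level in TFH and TFR cells.

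Bmp7, a secreted ligand that can signal through Acvr1 and Bmpr1a, was abundant in both follicular populations. On d12 it measured 564, 9594, 3705, and 9441 RU, and on d25 it measured 551, 9299, 3388, and 8230 RU. Both days gave the same order, with the naïve cells lowest, Treg cells in between and both follicular populations at the top, and only the TFH and TFR values lay close to each other. TFH cells exceeded naïve CD4 T cells by 4.08 ± 0.09 on the log2 scale, which is 16.9-fold (adjusted p = 8.325e-05). Treg cells exceeded naïve cells by 2.67 ± 0.09, or 6.36-fold (adjusted p = 0.0007916). In TFR cells Bmp7 was 1.32 ± 0.09 above Treg cells, or 2.49-fold (adjusted p = 0.001203). No difference between TFR and TFH cells was called: it was -0.10 ± 0.09 with a 95% confidence interval of -0.33 to 0.13 (adjusted p = 0.4651).

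Sostdc1 had by far the widest range of the 8 genes. Its main probe measured 220, 86739, 20, and 2133 RU on d12 and 92, 81030, 20, and 1897 RU on d25. It was thus highest in TFH cells, well above background in TFR cells and low in naïve cells. In Treg cells it was not well above background, and 20 RU is the floor of the scale and not a measured level. Whether TFH cells carried over in the TFR sort added to the TFR level was not tested. TFH cells exceeded naïve CD4 T cells by 9.21 ± 0.34 on the log2 scale, or 591-fold (adjusted p = 0.0001766), and TFR cells lay 5.38 ± 0.34 below TFH cells, or 41.7-fold (adjusted p = 0.001375). TFR cells were at least 37.9-fold above Treg cells (adjusted p = 0.0006382), a bound set by the dimmest probe that was well above background on each Treg array. By the same bound, Treg cells were at least 2.67-fold below naïve cells (adjusted p = 0.01181), a call that was lost without either Treg array (adjusted p = 0.06637 and 0.09324), without the filter on dim probes (adjusted p = 0.08802), and when the floor was raised to the level that sets this bound (adjusted p = 0.05669).

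The other Sostdc1 probe, which shares no base with the first in these coordinates, gave 187, 65388, 21, and 1617 RU on d12 and 59, 99281, 20, and 2251 RU on d25. The order of the cell types was the same with both probes, although the naïve array of d25 and both Treg arrays were not well above background on this one. For TFH against naïve cells it gave a difference of 9.58 ± 0.58, and for TFR against TFH cells one of -5.40 ± 0.58. Without the TFH array of d25, the TFH difference from naïve cells was 9.02 for Sostdc1 (adjusted p = 0.00246) and 4.05 for Bmp7 (adjusted p = 0.001372). Without that array TFH cells differed from naïve cells by 1.78 for Acvr1 (adjusted p = 0.00668), by -1.18 for Smad1 (adjusted p = 0.01403), and by -0.73 for Smad5 (adjusted p = 0.0384), so all 5 genes called in TFH cells stayed called.

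Acvr1 encodes ALK2, a type I receptor that binds Bmp7. Its main probe measured 110, 346, 209, and 1132 RU on d12 and 126, 759, 287, and 1782 RU on d25. The levels rose from naïve to Treg to TFH to TFR cells, and no 2 cell types overlapped. TFH cells lay 2.12 ± 0.23 above naïve cells on the log2 scale, or 4.36-fold (adjusted p = 0.002323), and TFR cells lay 2.54 ± 0.23 above Treg cells, or 5.81-fold (adjusted p = 0.002384). TFR cells also exceeded TFH cells, by 1.47 ± 0.23, or 2.77-fold (adjusted p = 0.01477). The difference between Treg and naïve cells, 1.06 ± 0.23, was not called (adjusted p = 0.05739). It lay near the threshold and was called in 5 alternative settings, among them the mean over probes (0.67, adjusted p = 0.04081). A dimmer Acvr1 probe, not well above background in naïve cells, kept the sign of all these differences, with smaller changes for TFH against naïve cells (0.82 ± 0.23) and TFR against Treg cells (1.26 ± 0.23), and the last Acvr1 probe was at or near the floor on every array.

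Bmpr1a, the type I receptor also known as ALK3, was dim throughout. On d12 it measured 76, 44, 149, and 144 RU, and on d25 it measured 60, 60, 114, and 213 RU. Both Foxp3-positive populations lay above both Foxp3-negative populations on each day, and only 1 of the 4 arrays of Foxp3-negative cells, the TFH array of d25, was well above background. TFR cells lay 1.77 ± 0.29 above TFH cells (adjusted p = 0.01645), whose d12 level was not well above background. The TFH difference from naïve cells was -0.39 ± 0.29 (95% interval -1.14 to 0.36) and that of TFR from Treg cells 0.42 ± 0.29 (-0.33 to 1.17), neither of them called.

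Bmpr2 is a type II receptor used by most BMP ligands. It measured 45, 25, 74, and 149 RU on d12 and 38, 64, 98, and 190 RU on d25. TFR cells were highest on both days and Treg cells came next, while naïve and TFH cells overlapped. Of the TFH arrays only that of d25 was well above background, so the difference between TFR and TFH cells, 2.08 ± 0.38 (adjusted p = 0.02298), is set in part against an unmeasured level. With the raised floor it was 1.75 (adjusted p = 0.01445). TFR exceeded Treg cells by 0.98 ± 0.38, which did not pass the test (adjusted p = 0.1016). This difference was called in 4 alternative settings, among them the raised floor (adjusted p = 0.04732).

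The higher levels of Acvr1, Bmpr1a, and Bmpr2 in TFR than in TFH cells rest on arrays that shared a slide at d12 only. Within that slide the difference was 1.71 for Acvr1, and the values of 1.71 for Bmpr1a and 2.59 for Bmpr2 were set against TFH levels not well above background. Because Bmpr1a and Bmpr2 were tested through the Foxp3-positive arrays on which they were higher, their calls are no independent evidence of a difference. Without the filter on dim probes none of the 3 was called (adjusted p = 0.09544 for Bmpr1a, 0.08607 for Acvr1, and 0.122 for Bmpr2). With the slide in place of the day in the fit, none passed either. The difference was then 1.53 for Acvr1 (adjusted p = 0.07222), 1.75 for Bmpr1a (adjusted p = 0.08668), and 2.16 for Bmpr2 (adjusted p = 0.09664). Under the same fit Sostdc1 stayed 5.68 lower in TFR than in TFH cells on the log2 scale (-5.68, adjusted p = 0.01158). Without the TFH array of d25 the difference for Bmpr1a was 2.02 (adjusted p = 0.0503) and that for Bmpr2 was 2.68 (adjusted p = 0.01703). Without either TFR array all 3 missed the threshold (adjusted p = 0.0573 to 0.1505), as did Bmpr1a without the TFH array of d12 (adjusted p = 0.0689) and Bmpr2 without either Treg array (adjusted p = 0.05595).

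Acvr2a, a type II receptor shared by BMPs and activins, did not separate the cell types. It gave 35, 120, 126, and 103 RU on d12 and 138, 104, 131, and 229 RU on d25. Only the naïve array of d12 was not well above background, and the ranges of naïve and TFR cells took in most values of the others. Its SE of 0.57 for each pair of cell types was the largest among the 8 genes, and a second probe was at the floor on all arrays. The interval for TFH against naïve cells ran from -0.78 to 2.16, so that a change of either sign was within the error.

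Smad1 and Smad5 carry the signal from the activated receptors. Smad1 measured 582, 238, 487, and 262 RU on d12 and 589, 277, 602, and 353 RU on d25. Smad5 measured 5973, 3336, 4519, and 2809 RU on d12 and 5916, 4057, 5253, and 3734 RU on d25. Both follicular populations lay below both non-follicular populations on every array for either gene.

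Smad1 was 1.19 ± 0.12 lower in TFH than in naïve cells (-1.19, a 2.28-fold decrease, adjusted p = 0.001978), and TFR cells lay 0.83 ± 0.12 below Treg cells (-0.83, 1.78-fold, adjusted p = 0.007891). For Smad5 the corresponding differences were -0.69 ± 0.13 (adjusted p = 0.01069) and -0.59 ± 0.13 (adjusted p = 0.02109). A dimmer Smad5 probe gave -0.47 ± 0.18 and -0.07 ± 0.18, so the second of these differences was near 0 on that probe. The remaining Smad1 probes were near or at the floor. The decreases in TFR cells were the less firm ones. Smad1 missed the threshold without either Treg array or without the TFR array of d12 (adjusted p = 0.05047 to 0.05901), and Smad5 missed it without any 1 of the 4 Treg and TFR arrays (adjusted p = 0.05919 to 0.1243). In TFH cells Smad5 missed the threshold without the naïve array of d12 (adjusted p = 0.05621) or the TFH array of d12 (adjusted p = 0.05228).

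**Figure D2:**
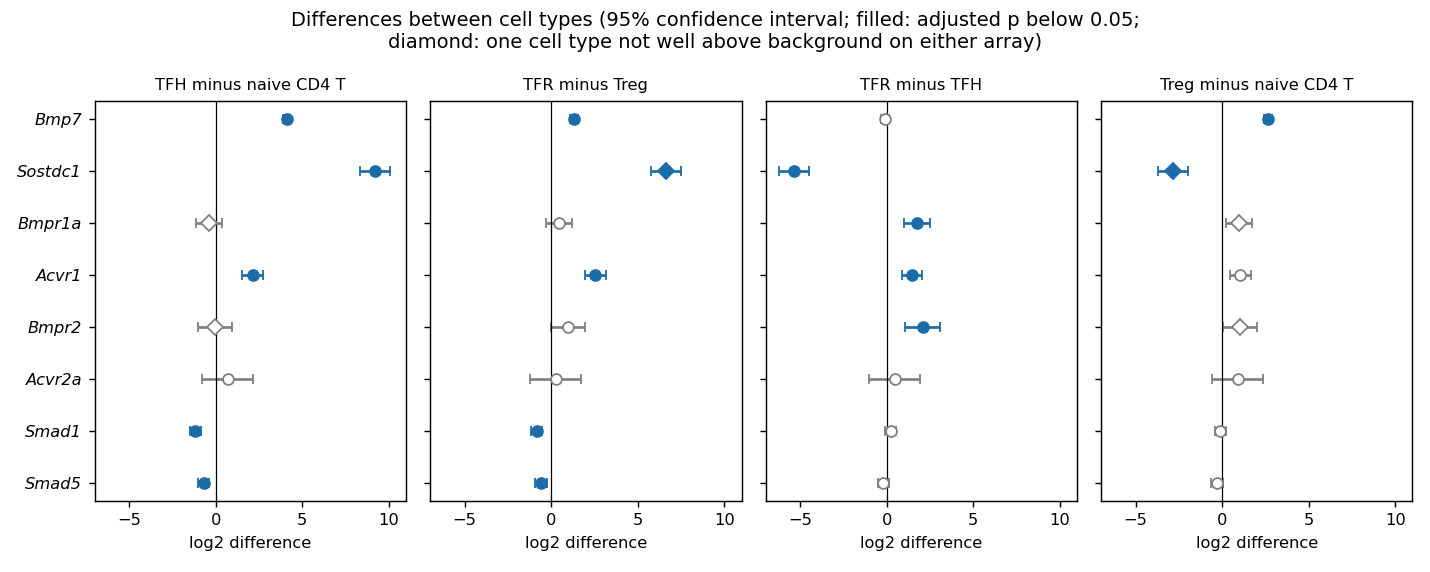
Log2 difference of each of the 8 genes in 4 comparisons, with 95% confidence intervals from limma (n = 2 arrays per cell type). Filled marks have an adjusted p below 0.05, and diamonds mark pairs in which one cell type was not well above background on either array; Bmp7 and Sostdc1 show the largest increases in TFH cells, at 4.08 and 9.21.

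Counted over the 8 genes, TFH cells had 3 above the naïve cells (Bmp7, Sostdc1, and Acvr1) and 2 below them (Smad1 and Smad5). In this comparison 46.5% of all tested genes were called, 20.9% as higher and 25.6% as lower. The same genes were called in the same directions in TFR against Treg cells, where 39.6% of all tested genes were called, 18.7% as higher and 20.9% as lower. Between TFR and TFH cells 3 of the 8 were higher in TFR cells (Bmpr1a, Acvr1, and Bmpr2, subject to the limits given above) and Sostdc1 was lower, with 22.1% of all genes called, 11.6% as higher and 10.5% as lower. Between Treg and naïve cells Bmp7 was higher and Sostdc1 lower, with 9.88% of all genes called, 5.89% as higher and 3.98% as lower. Calls were thus common among all genes, and a count over 8 genes is to be read against these shares.

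Between d25 and d12 none of the 8 genes was called by limma, and 11 of all 15764 genes were (0.0698%, of which 0.019% higher and 0.0507% lower). At an unadjusted p under 0.05 there were 2 of the 8, Acvr1 (0.61 ± 0.16 higher at d25) and Smad1 (0.24 ± 0.09 higher). All d12 arrays were on 1 slide and the d25 arrays on the other 2, so day and slide cannot be told apart. Since each day is a single array per cell type, the day was compared over all cell types together.

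The step from a non-follicular to a follicular cell was then compared between Foxp3-negative cells (TFH minus naïve) and Foxp3-positive cells (TFR minus Treg), as the difference between both changes. These comparisons share no array. Of the 8 genes, Bmp7 and Sostdc1 were called, both with a negative value, where 8.49% of all genes were called, 4.03% as higher and 4.46% as lower. For Bmp7 the difference was -2.77 ± 0.12 (adjusted p = 0.002853), with -2.74 on d12 and -2.80 on d25. The smaller step in Foxp3-positive cells went with the higher starting level in Treg cells. For Sostdc1 the difference was -2.55 ± 0.47 (adjusted p = 0.04234), with -1.89 on d12 and -3.22 on d25. As Sostdc1 in Treg cells is known only to be below the scale, its increase from Treg to TFR cells is a lower bound, and neither the size nor the sign of this difference is fixed. Its call was lost in 12 alternative settings, with adjusted p values of up to 0.1847. Acvr1 rose by 2.12 in the one and 2.54 in the other, a difference of 0.41 ± 0.33 (95% interval -0.43 to 1.26) that was not called.

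Other genes of the pathway were taken from a list of 52 genes on the array, of which 25 were tested. In TFH against naïve cells 5 of the 25 were higher and 14 lower, with a median difference of -0.65, against -0.07 for all tested genes. In TFR against Treg cells 3 were higher and 10 lower, with a median of -0.38, against -0.08 for all tested genes. Between TFR and TFH cells 4 were higher and 4 lower, and between Treg and naïve cells 2 were higher and 5 lower. None was called between days. The shares of all genes called in these comparisons, given above, are 46.5%, 39.6%, 22.1%, and 9.88%. The counts by role below are of 2 to 6 tested genes each and are to be read against such shares. Several counts rest on single arrays. Leaving out a Treg or TFR array took the 13 calls of TFR against Treg cells to 7 or 8, leaving out the TFH array of d25 or a Treg or TFR array took the 8 of TFR against TFH cells to 4 or 5, and leaving out a naïve or Treg array took the 7 of Treg against naïve cells to 1 to 3.

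Of 13 other BMP and GDF ligands, 11 did not pass the filter on dim probes, among them Bmp2, Bmp4, and Bmp6. The remaining ones, Bmp8a and Gdf7, were lower in TFH than in naïve cells, by 0.87 ± 0.18 (-0.87) and 0.91 ± 0.22 (-0.91).

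Among 14 other antagonists and modulators 6 were tested. In TFH against naïve cells 2 rose and 3 fell, beside 20.9% and 25.6% of all tested genes. Fst encodes follistatin, which binds activins and some BMPs. It measured 20, 445, 20, and 35 RU on d12 and 20, 1398, 20, and 26 RU on d25, and was well above background in TFH cells alone, the arrays through which it was tested. Fst was at least 13.5-fold higher in TFH than in naïve cells (adjusted p = 0.001701) and at least 17.0-fold lower in TFR than in TFH cells (adjusted p = 0.00571). Because Fst was tested only through the TFH arrays on which it was high, these calls are no independent evidence of a difference. Twsg1, which binds BMPs together with chordin, rose in both follicular populations, by 1.28 ± 0.22 in TFH and 1.34 ± 0.22 in TFR cells. Nbl1, an antagonist of the DAN family, was lower in TFH than in naïve cells (-0.71 ± 0.10) and higher in TFR than in Treg cells (0.76 ± 0.10). The rise of Twsg1 in TFR cells missed the threshold without either Treg array or the TFR array of d25 (adjusted p = 0.05625 to 0.07646), that of Nbl1 without the TFR array of d12 (adjusted p = 0.05288), and the Fst difference between TFR and TFH cells without the TFR array of d25 (adjusted p = 0.052) or the filter on dim probes (adjusted p = 0.05371).

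Among 8 other receptors and coreceptors 5 were tested. In TFH against naïve cells 3 fell and none rose, beside 25.6% and 20.9% of all tested genes. Acvrl1 encodes the type I receptor ALK1. It measured 5828, 117, 1221, and 252 RU on d12 and 6278, 149, 1384, and 300 RU on d25. It was thus highest in naïve cells and lowest in TFH cells, and no 2 cell types overlapped. The difference of TFH from naïve cells was -5.52 ± 0.10, or 45.8-fold (adjusted p = 8.209e-05), and that of TFR from Treg cells was -2.24 ± 0.10, or 4.73-fold (adjusted p = 0.0004977). Rgmb, a BMP coreceptor, was lower in TFH than in naïve cells (-1.43 ± 0.13, adjusted p = 0.001393) and lower in Treg than in naïve cells (-1.47 ± 0.13, adjusted p = 0.005085), the latter call being lost without the Treg array of d12 (adjusted p = 0.0574).

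Among the other Smads and their ubiquitin ligases 4 of 6 were tested. All 4 fell in TFH against naïve cells and in TFR against Treg cells. Of all tested genes, 25.6% and 20.9% were called lower in these comparisons. Smad7, an inhibitory Smad that blocks the receptors, measured 3421, 132, 3343, and 1332 RU on d12 and 3675, 126, 3663, and 1436 RU on d25. Naïve and Treg cells overlapped, TFR cells lay below them and TFH cells lay far below. The difference was -4.78 ± 0.09 for TFH against naïve cells, or 27.6-fold (adjusted p = 8.209e-05), and -1.34 ± 0.09 for TFR against Treg cells (adjusted p = 0.001292). Smad4, the partner of all receptor-regulated Smads, fell by less, with -0.74 ± 0.08 in TFH and -0.66 ± 0.08 in TFR cells. Smurf2, a ubiquitin ligase that acts on receptors and Smads, gave -0.93 ± 0.12 and -1.37 ± 0.12.

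Of 8 direct targets 6 were tested. In TFH against naïve cells 3 rose and 1 fell, beside 20.9% and 25.6% of all tested genes. In TFR against Treg cells 1 rose and 1 fell, beside 18.7% and 20.9% of all tested genes. The one that fell was Msx2, a homeobox gene, in both comparisons (-0.93 ± 0.09, adjusted p = 0.001852, and -0.59 ± 0.09, adjusted p = 0.009526). Id1, the classical BMP target, measured 228, 5116, 283, and 372 RU on d12 and 298, 5101, 220, and 205 RU on d25. TFH cells stood apart from the other 3 cell types, whose values overlapped. Id1 was 4.29 ± 0.30 higher in TFH than in naïve cells, or 19.6-fold (adjusted p = 0.0007089), and TFR cells differed from TFH cells by -4.21 ± 0.30 (adjusted p = 0.001893). Hey1 measured 36, 2272, 179, and 1518 RU on d12 and 30, 941, 104, and 719 RU on d25, and rose in both follicular populations, at least 25.1-fold in TFH cells (adjusted p = 0.0002646) and 7.65-fold in TFR cells (adjusted p = 0.002247). Hey1 is also a target of Notch. Id3 was 0.99 ± 0.16 higher in TFH than in naïve cells and 1.14 ± 0.16 higher in Treg than in naïve cells, while Id2 was lower in Treg than in naïve cells (-1.35 ± 0.22, adjusted p = 0.02643). Both Treg differences missed the threshold without any 1 of the Treg and naïve arrays, and that of Id2 also without either TFR array. At d25 the Treg and naïve arrays were on different slides. With the slide in place of the day both differences missed the threshold (adjusted p = 0.1404 for Id2 and 0.061 for Id3). They also missed it without the filter on dim probes (adjusted p = 0.1341 and 0.09502). Of the 3 LRP coreceptors, to which Sostdc1 can bind, 2 were tested, and Lrp5 was lower in TFH than in naïve cells (-0.61 ± 0.08), and TFR cells lay below Treg cells (-0.40 ± 0.08).

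**Figure D3:**
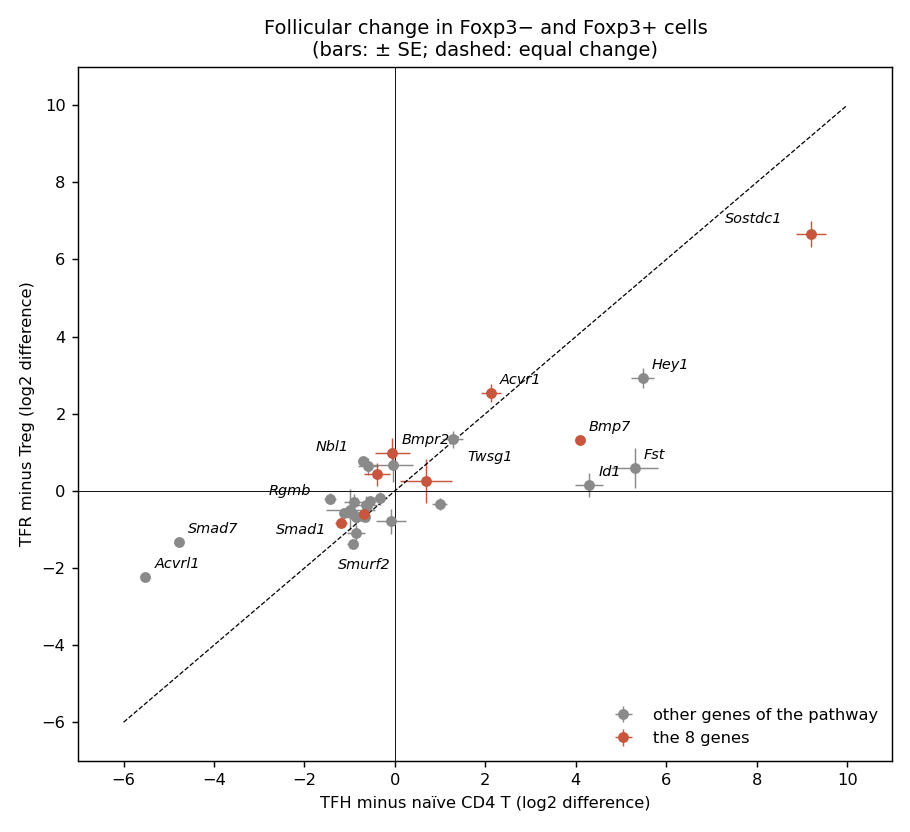
Log2 difference of TFR from Treg cells (vertical) against that of TFH from naïve CD4 T cells (horizontal) for the 8 genes and 25 other tested genes of the pathway, with ± SE bars (n = 2 arrays per cell type). Points off the dashed line of equal change include Bmp7 (4.08 and 1.32), Id1, Acvrl1, and Smad7; for Sostdc1, Bmpr1a, Bmpr2, Fst, Fstl3, and Hey1 at least 1 cell type was not well above background on either array, so their positions are not exact.

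The genes whose pattern over the 8 arrays was most like that of Sostdc1 and Bmp7 were found among all tested genes by the root mean square (RMS) difference of log2 levels, after each gene's own mean was subtracted. For Sostdc1 these were Il21 (RMS 0.92), Mei1 (1.16), 1810009J06Rik (1.52), Pgam2 (1.55), and Il1r1 (1.56). Mei1, 1810009J06Rik, Pgam2, and Il1r1 were well above background on 4 of the 8 arrays each, those of TFH and TFR cells. In naïve and Treg cells they measured 20 to 52 RU, so their likeness there rests on levels at or near the floor. They also entered the test only through the follicular arrays on which they were high. Il21 encodes the B cell helper cytokine of TFH cells. It measured 258, 23722, 20, and 1556 RU on d12 and 182, 26344, 20, and 2386 RU on d25, with the same order of cell types as Sostdc1. For Bmp7 the closest genes were Trib1 (0.24), Mrgpre (0.29), Endod1 (0.30), Spry1 (0.34), and Zdhhc2 (0.37). The values closest to Bmp7 were smaller than those closest to Sostdc1, whose log2 range was wider.

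**Figure D4:**
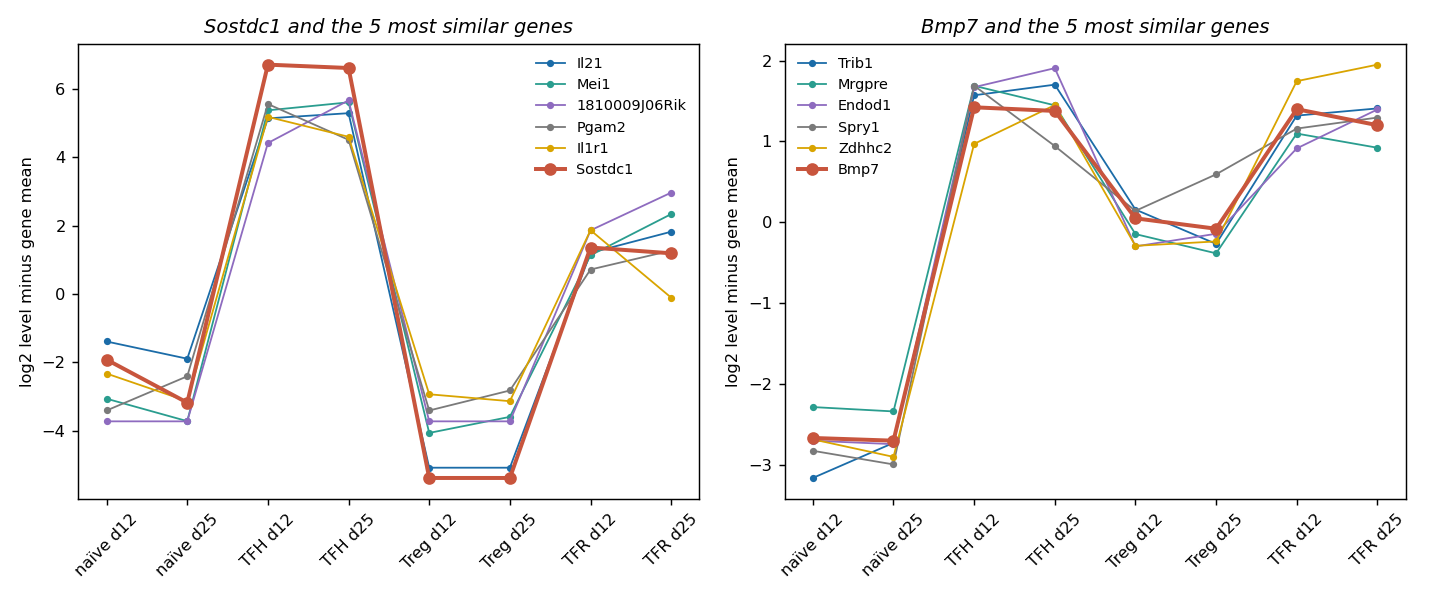
Log2 level minus the gene's mean over the 8 arrays (vertical), by array (horizontal, cell type and day), for Sostdc1 and Bmp7 (thick) and the 5 genes closest to each (thin); lines join arrays only to guide the eye. Sostdc1 and Il21 (RMS 0.92) are both highest in TFH and at the floor in Treg cells, and Bmp7 and Trib1 (RMS 0.24) are both high in TFH and TFR cells.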

How the data were processed

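RNA of sorted cells was amplified in 1 round, labeled with a fluorescent dye and hybridized to one-color Agilent arrays carrying 39429 probes as 4 spots each. The deposited scanner files hold processed intensity values made by the authors with Agilent Feature Extraction (10.7.3.1), and the deposited table holds the authors' normalized intensity values per probe. The scanner intensities were processed after the study's methods: flagged, outlying and uneven spots were left out, the rest averaged per probe by geometric mean, quantile normalized, scaled to a 75th percentile of 1500 and floored at 20. Floored values understate a difference between 2 cell types, but the difference between both follicular changes can move either way. For Sostdc1 the latter was -2.55 with this floor, -1.73 without a floor and -3.96 with the raised floor. Of all spots, 86.5 to 89.2% were kept, and 18261 to 19867 probes per array were well above background, which with 2 arrays per cell type limits the precision.

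Log2 values were fitted with limma (3.58.1, R 4.3.3) on cell type and day, with 3 residual degrees of freedom, and p-values were adjusted by the Benjamini-Hochberg procedure. On simulated data 64 of 100 genes changed by 1 on the log2 scale and 95 of 100 changed by 2 were called for TFH against naïve cells, with 11 false calls. There the other 15564 genes were unchanged, the noise was independent and the day effect was additive. In the real comparison 46.5% of all tested genes were called, so these rates do not carry over to it. All 8 genes were named, and from the pathway list the called genes with the largest differences, up to 3 per direction, with others of interest added after their values were seen. The genes and lists were chosen with earlier results of these data known. Alternatives covered background correction, scaling, floor, filters, probe choice, slide, day and leaving out each array. Peyer's patch samples were not analysed here, and 1 B cell marker of the list is not reported here and was left out of its sum.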

Additional observations from a re-analysis of the deposited data

Results flagged for a closer look

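The change from the non-follicular to the follicular cell differed between Foxp3-positive and Foxp3-negative cells, by the limma interaction term (adjusted over all 15764 genes), for 2 of the 8 genes and 8 of the 25 other pathway genes tested, beside 8.49% of all genes. The 8 fell to 3 without the filter on dim probes and without any 1 of the Treg and TFR arrays, and to 4 without either naïve array. The rise was smaller in Foxp3-positive cells for Bmp7 (-2.77, adjusted p = 0.002853). For Sostdc1 the value was -2.55 (adjusted p = 0.04234), a call lost in 12 settings (adjusted p up to 0.1847). Among the other genes it was -4.72 for Fst (adjusted p = 0.02774), -4.15 for Id1 (adjusted p = 0.01126), -2.54 for Hey1 (adjusted p = 0.02284), and -1.33 for Id3 (adjusted p = 0.03437). A positive difference was found for Smad7 (3.45, adjusted p = 0.002798), Acvrl1 (3.28, adjusted p = 0.002798), Nbl1 (1.47, adjusted p = 0.009885), and Rgmb (1.23, adjusted p = 0.02531). Every 1 of these 10 differences had the same sign at d12 and d25. The calls of Bmp7, Smad7, and Acvrl1 held in every setting run, while those of Hey1 were lost in 9 (adjusted p up to 0.1537), of Rgmb in 9 (0.1198), of Id3 in 8 (0.1457), of Fst in 7 (0.1452), of Nbl1 in 4 (0.06627), and of Id1 in 3 (0.08047). Neither size nor sign is fixed for Sostdc1 and Fst, because Treg cells were at the floor for both genes and Fst was not well above background in naïve and TFR cells either. Fst was tested only through its TFH arrays, so its call here is no independent evidence of a difference. Hey1 was not well above background in naïve cells, so that its increase in TFH cells is a lower bound.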

How the results depend on the processing

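Of 18 called differences of the 8 genes, 10 kept their call and direction in all 18 alternatives chosen first that gave a value and in 2 chosen after seeing the data (no floor, and a floor at the lowest signal well above background): all 4 of Bmp7, Sostdc1 in TFH against naïve, TFR against Treg, and TFR against TFH cells, Acvr1 and Smad1 in TFH cells, and Acvr1 in TFR against Treg cells. For TFR against TFH cells the count of called genes fell from 4 to 1 without the filter on dim probes, with only genes well above background on all arrays (4 of the 8 genes were then tested), and with the slide as a block. Treg against naïve cells gave 1 in place of 2 without the filter and with the raised floor. The difference between both follicular changes gave 1 in place of 2 with the authors' table, without the filter, with the stricter filter, with the mean over probes, with no floor, with the slide as a block, and with no replicate block (no day term). The fit with no replicate block otherwise lost Acvr1 in TFR against TFH cells (1.47, adjusted p = 0.07169) and Smad5 in TFR against Treg cells (-0.59, adjusted p = 0.06223); replicate numbers only follow accession order, so no other pairing was fitted. Leaving out 1 array each gave 4 to 5 called genes for TFH against naïve, 3 to 6 for TFR against Treg, 1 to 4 for TFR against TFH, 1 to 3 for Treg against naïve cells, and 1 to 2 for the difference of changes; the lowest counts came without either TFR array for TFR against TFH and without either Treg array for Treg against naïve cells. The cause was not tested.

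Only uncalled differences reversed. Leaving out 1 array each, Acvr2a ranged from -0.14 to 1.52 for TFH against naïve cells, from -0.18 to 1.10 for TFR against TFH, from -0.20 (the other reversal was -0.015) to 0.71 for TFR against Treg, and from -1.26 to 0.39 for the difference of changes, which the raised floor turned to 0.053. Bmpr1a ranged from -0.10 to 0.21 for the day, Bmpr2 from -0.66 to 0.55 for TFH against naïve, Smad1 from -0.26 to 0.038 for Treg against naïve, and Smad5 from -0.055 to 0.26 for the difference of changes. Bmpr2 in TFH against naïve cells gave 0.0225 without quantile normalization, 0.0218 with normexp, and 0.10 with all spots. With the mean over probes, Smad1 gave -0.22 for TFR against TFH and -0.037 for the difference of changes, and Smad5 gave 0.056 for TFR against TFH cells. Over all genes, calls ranged from 4309 to 7819 for TFH against naïve (7332 in the report), 2494 to 6806 for TFR against Treg (6249), 942 to 4249 for TFR against TFH (3486), 416 to 2064 for Treg against naïve (1557), 292 to 1816 for the difference of changes (1339), and 0 to 1095 for the day (11).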
